A study of Caenorhabditis elegans with 4 samples.

Results

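The subject is REC-8 binding close to the ends of chromosomes II, III, IV, V and X of C. elegans, where each chromosome has a left and a right end in the map of build WS220. A region was taken as near an end when its midpoint lay within 500 kb of it, which chose 356 of the 7283 regions of the series-level peak list. That choice used position alone, although the rule was set with earlier results of these data known. REC-8 was mapped by chromatin immunoprecipitation and sequencing (ChIP-seq), in 2 libraries precipitated by a polyclonal rabbit antibody to REC-8, beside 2 libraries of input DNA. All 4 libraries came from hermaphrodite adults, strain fem-2(b245), whose genotype is given as fem-2(b245)III, kept at 20 °C and containing a germline. The labels call them young adults, and the growth protocol speaks of gravid ones. fem-2 encodes a phosphatase that promotes male development. Chromatin was made from whole animals, so germ cells and body cells are mixed in every library, and no library from animals lacking REC-8 was analysed here. Peaks were listed for each REC-8 replicate (2664 and 3670 peaks) and for the series as a whole. The labels do not state whether the replicates were grown separately, so a difference between them may be technical.

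REC-8 is the kleisin subunit of a meiotic cohesin, the ring-shaped complex that holds sister chromatids together and forms part of the axis on which homologous chromosomes pair and recombine. C. elegans chromosomes have no localised centromere, and a special role in meiosis falls to their ends. Near 1 end of each lies a pairing centre, rich in short repeats that are bound by zinc-finger proteins (HIM-8 on X, ZIM-1 on II and III, ZIM-2 on V, ZIM-3 on IV). Pairing centres attach to the nuclear envelope, where they help homologues to find each other and synapsis to begin. The ends taken here as pairing-centre ends are the left of II, IV, V and X and the right of III, and the remaining 5 ends are called other ends. This assignment was taken as given and was not checked, so an end may stand in the wrong class. Every comparison of the classes below rests on it. The repeats themselves were not located, so a 500-kb window stands for the end and not for the pairing centre proper.

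REC-8 regions were found at all 10 ends, and groups of close neighbours alternated with long empty stretches. The right end of III held 64 regions, the right end of II 50, the left end of III 43, the left end of IV 40, the left end of X 37 and the right end of X 33. The right ends of IV and V held 25 each, the left end of II 24 and the left end of V 15. The regions covered from 0.927% of the window at the left end of V to 5.49% at the right end of II. The median gap between neighbouring regions was 706 bp at the left of III, 2683 bp at the right of II and 2928 bp at the right of III, and between 4585 and 19437 bp at the 7 remaining ends. A neighbour lay within 1 kb for 65.1%, 58.0% and 51.6% of the regions at the former 3 ends, and for 13.3% at the left of V. At the left end of V a stretch of 144.9 kb (349435 to 494350) held no region, and the longest empty stretch at the right end of III was 41.9 kb (13466446 to 13508374). Over the 10 ends the first 100 kb held 77 regions, and the following steps of 100 kb held 65, 81, 68 and 65, so that the totals showed no steady climb or fall towards the end. Single ends were far less even, and the same outermost 100 kb held 23 regions at the right end of III and 2 at the left end of IV.

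**Figure D1:**
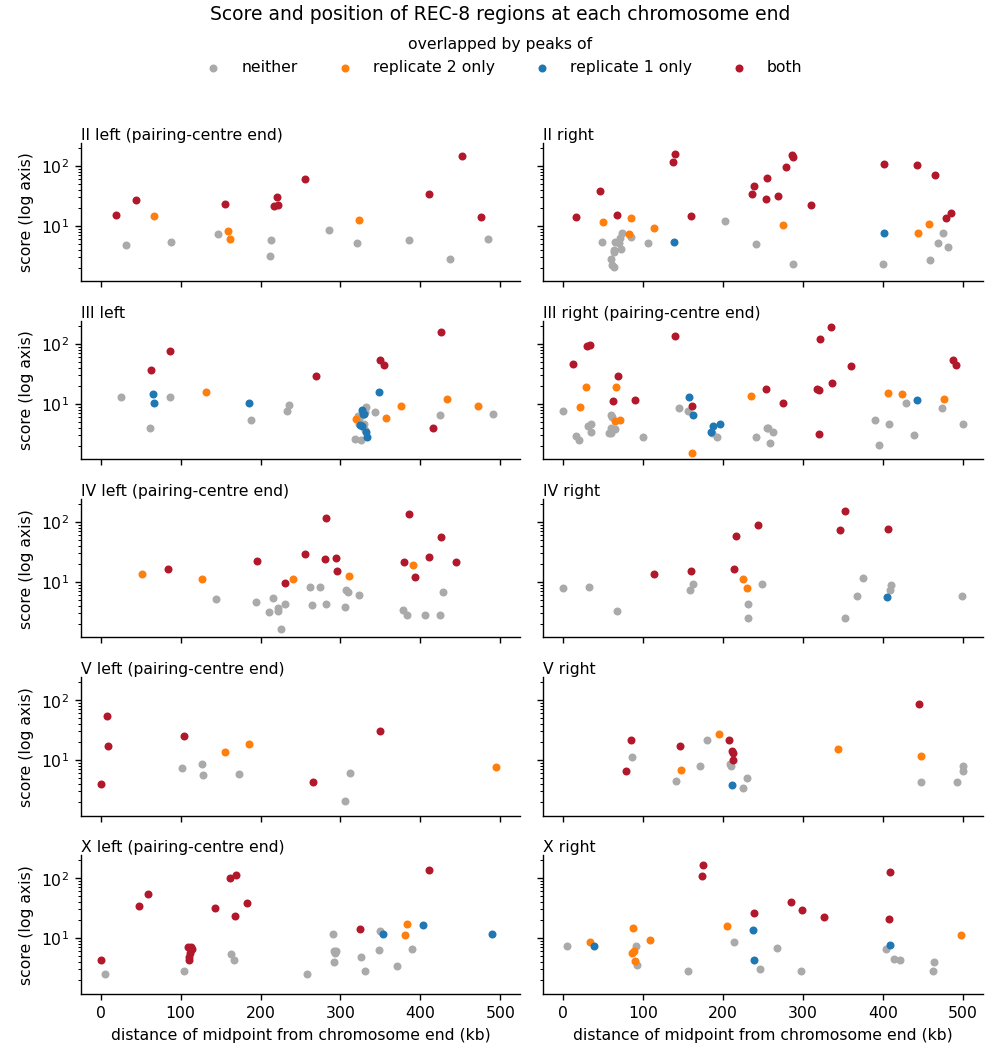
Score of each of the 356 REC-8 regions (vertical, log axis, the authors' series-level score) against the distance of its midpoint from the chromosome end (horizontal, kb), with colours for the replicates whose peaks overlap it. High scores are mostly overlapped by peaks of both replicates, a tight group of low scores lies a little over 300 kb from the left end of III, and a group overlapped by both replicates lies about 110 kb from the left end of X.

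At the very tip of the map, all 5 left ends carried a REC-8 peak that started at base 1 in each replicate, and none of the 5 right ends had a peak within 1 kb of its last base in either replicate. On X the terminal peak ran to base 368 in replicate 1 (score 415) and to base 340 in replicate 2 (score 762). On V it ran to base 390 (score 213) and base 303 (score 419). On II it ran to base 458 (score 251.71) and base 451 (score 255). On III it ran to base 199 (score 178) and base 205 (score 313), and on IV to base 256 (score 188) and base 238 (score 339). These are scores of the replicate lists, where the terminal peaks stood at percentiles 51.4 to 76.6 of the list of replicate 1 and 68.0 to 91.1 of that of replicate 2. No entry of any of the 3 lists ended at the last base of one of these chromosomes. Whether entries that ran past the last base were removed before deposit is not given in the sources used here and cannot be seen in the files, so left and right tips may not be comparable.

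The series-level list differed from both replicates at these tips. It had no region under the terminal peaks of II, III and IV, where its outermost regions were II 18844 to 19164 (score 15.33), III 25625 to 25937 (score 13) and IV 51326 to 51475 (score 13.54). The first of these overlapped peaks of both replicates, the second of neither and the third of replicate 2 alone. It did have a terminal region on V (92 to 303) and on X (1 to 321), but with low scores of 4.03 and 4.20, at percentiles 19.7 and 21.4 of the list. At the right ends of III and IV the position was the opposite. The series-level list held III 13783372 to 13783553 (score 7.73), 147 bp from the end, and IV 17493476 to 17493639 (score 7.89), 154 bp from the end, and neither replicate had a peak there. The outermost replicate peaks lay 12.2 kb from the right end of III in each list, and 113.2 and 113.3 kb from the right end of IV. The outermost region on the right of II (15262999 to 15263363, score 13.95) and of V (20845524 to 20845895, score 6.42) was overlapped by peaks of both replicates, 16.0 and 78.3 kb from the end. On the right of X it was 17714392 to 17714614 (score 7.24), 4.25 kb from the end and found in neither replicate. Telomeric repeats adjoin these tips, and how reads were placed there is not given in the sources used here, so its part in the result was not tested.

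**Figure D2:**
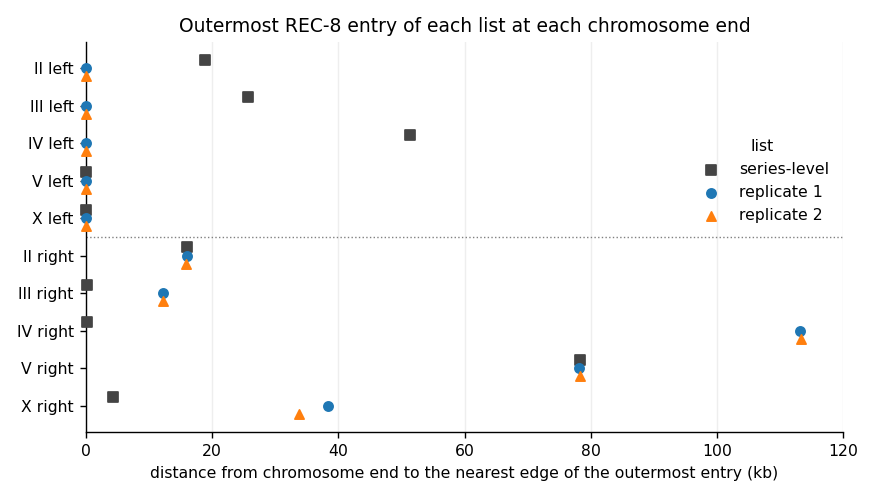
Distance in kb from the chromosome end to the nearest edge of the outermost entry of each list, for the 5 left ends (above the dotted line) and the 5 right ends. Replicate 1 and replicate 2 both sit at 0 at every left end and at none of the right ends, while the series-level list comes within 1 kb of the tip at the left of V and X and the right of III and IV. Entries running past the last base may be missing from the lists, so the sides may not be comparable.

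The strongest region at a chromosome end was III 13447892 to 13448772, 335 kb from the right end, with a series-level score of 193.65, the rank 2 of all 7283 regions. Both replicates gave it 3100, a tied score that 83 and 62 peaks of their lists share. It was followed by X 17544064 to 17544754 (score 168.48), III 424504 to 428054 (157.84), II 15138262 to 15140412 (157.8) and II 14992895 to 14993850 (155.89), which ranked 32, 48, 49 and 53. All 5 were overlapped by peaks of both replicates, with 1858.14 and 2068.55 for the region on X, 3100 and 2038.04 for that on the left of III, 3100 in each for the first on II and 2117.14 and 1313.03 for the second. The highest region of the right end of IV was 17140183 to 17141834 (score 153.65), of the left end of II 451574 to 452784 (149.16), of the left end of IV 385005 to 385936 (137.61) and of the left end of X 409847 to 410530 (137.18). Chromosome V had the weakest maxima, with 87.36 at 20478950 to 20479648 on the right and 54.95 at 8038 to 8436 on the left. The last region lay 8.24 kb from the tip and scored 204.51 and 460.8 in the replicates. Of the highest regions of the 10 ends, those of the left of V and the right of II and X lay within 200 kb of their end. The other 7 lay between 335 and 452 kb from it.

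Of the 356 regions, 42 (11.8%) were in the top 10% of the series-level list by score, against 10.0% of the whole list. The right end of II held 10 of them and the right end of III 9, whereas each end of V held 1. The median score per end ran from 6.53 at the left of X to 10.49 at the left of II. Quartiles were wide, with 5.21 and 30.7 at the right of II and 4.74 and 16.56 at the left of X, and the median of each end lay between the quartiles of every other end.

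Most regions near the ends were narrow, 312 bp at the median with quartiles of 208 and 494 bp, and 26 of 356 (7.30%) were 1 kb or wider, against 5.57% of the whole list. The widest was II 15038566 to 15043183 (4618 bp, score 46.86). Replicate 1 covered 98.9% of it (score 2924.32) and replicate 2 31.7% (score 361.2). III 424504 to 428054 (3551 bp) was covered to 91.3% and 35.1%, and IV 292010 to 295555 (3546 bp, score 25.02) to 98.3% and 21.97%. The latter scored 827.41 in replicate 1 and 98.37 in replicate 2. III 62038 to 64581 (2544 bp, score 36.77) was covered to 99.6% and 50.9%, and only IV 17278831 to 17281461 (2631 bp, score 16.66) of these 5 was covered above 90% in each, at 99.1% and 95.4%. Replicate 1 covered more than replicate 2 of each of these 5 regions.

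Both replicates overlapped 116 of the 356 regions by at least 1 bp (32.6%, 95% Wilson interval 27.9 to 37.6%), against 29.1% of the whole list. Replicate 1 alone overlapped 28 (7.87%, against 7.65%), replicate 2 alone 51 (14.3%, against 18.6%) and neither 161 (45.2%, against 44.6%). Depths are unknown, and these intervals cover counting error only. They treat regions as independent, although several can lie under the same replicate peak. With such regions counted once, both replicates overlapped 105 of 339 near the ends (31.0%). Regions found in both had a median score of 27.7 and a median width of 506 bp, and those found in neither 5.09 and 217 bp. Among regions above the upper quartile of the series-level score, 82 of 89 regions near the ends were found in both replicates (92.1%, interval 84.6 to 96.1%), and 1225 of 1376 (89.0%, interval 87.3 to 90.6%) elsewhere on the 5 chromosomes. Across the 116 regions Spearman's rho of the replicates' scores was 0.617, and across the 1604 such regions elsewhere on these chromosomes 0.683, both as descriptions of the same pair of libraries.

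In the lower 50% of the list by score, 12 of 176 regions near the ends were found in both replicates (6.82%, interval 3.94 to 11.5%), against 69 of 2817 (2.45%, interval 1.94 to 3.09%) elsewhere on the 5 chromosomes, a difference that was not tested. They were looked at after this share was seen. The left end of X held 7 of the 12, and 6 of those lay under the same wide peak in each replicate. These 6 are not independent of each other, so the interval for the ends is too narrow. That peak ran from X 109149 to 114363 in replicate 1 (5215 bp, score 1177.33, percentile 91.7 of its list) and from 109427 to 114339 in replicate 2 (4913 bp, score 114.3). The series-level list split it into 6 regions of 174 to 1258 bp with scores of 4.28 to 7.09. On the left of V a peak of 2346 bp in replicate 1 (264964 to 267309, score 181.61) and of 2298 bp in replicate 2 (264975 to 267272, score 51.8) met a single series-level region of 608 bp with a score of 4.20. The terminal regions of V and X were a further 2 of the 12.

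The left end of III had the lowest share found in both replicates and the highest share found in replicate 1 alone of the 10 ends. Replicate 1 had 19 peaks there and replicate 2 had 14, although the list of replicate 2 is the longer (2991 against 2158 peaks on the 5 chromosomes). Replicate 1 alone overlapped 11 of its 43 regions (25.6%, interval 14.9 to 40.2%), and both overlapped 7 (16.3%, interval 8.12 to 29.97%). A run of 18 regions within 14.7 kb, III 318115 to 332813, accounted for 7 of the 11. This run was also singled out after its values were seen. Its scores ran from 2.49 to 8.74, and 0 of the 18 were found in both replicates, 1 in replicate 2 alone and 10 in neither. Without the run, 7 of the 25 remaining regions of that end were found in both (28%). The left end of X also had more peaks in replicate 1 (14) than in replicate 2 (13), the right end of IV had 11 in each, and the other 7 ends had more in replicate 2.

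**Figure D3:**
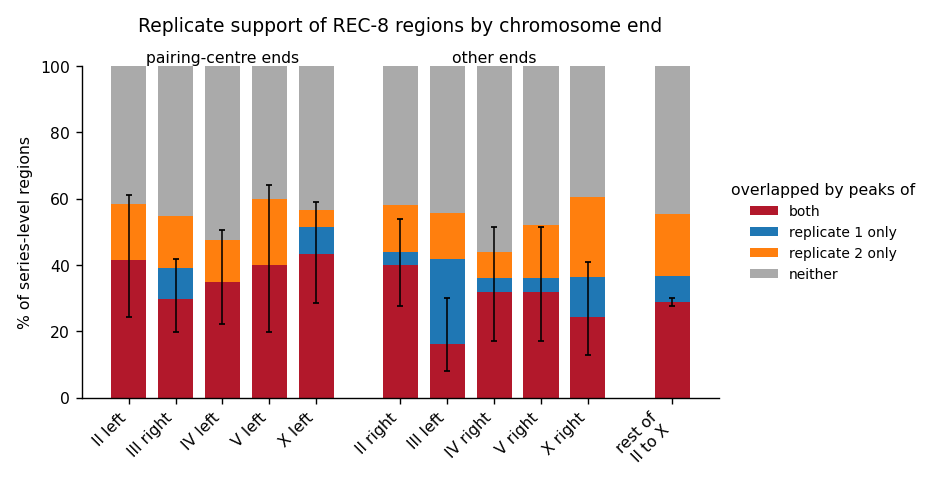
Share of the series-level regions of each end (%) overlapped by peaks of both replicates, of a single replicate or of neither, with the rest of chromosomes II to X at the far right. Error bars are 95% Wilson intervals of the share found in both, which runs from 16.3% at the left of III to 43.2% at the left of X.

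Pairing-centre ends and other ends overlapped in their number of REC-8 regions, and their means lay close together. The 5 pairing-centre ends held 36.0 ± 18.6 regions (SD, n = 5 ends) and the 5 other ends 35.2 ± 11.1 (SD, n = 5), a difference of 0.8 (exact permutation test over the 10 ends, two-sided, p = 0.944). The pairing-centre end held the more regions on III (64 against 43), IV (40 against 25) and X (37 against 33), and the fewer on II (24 against 50) and V (15 against 25). The same order held for each chromosome but X in replicate 2, where the pairing-centre end of X had 13 peaks and its right end 17. The most crowded and the emptiest of the 10 ends, III right and V left, were both classed here as pairing-centre ends.

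**Figure D4:**
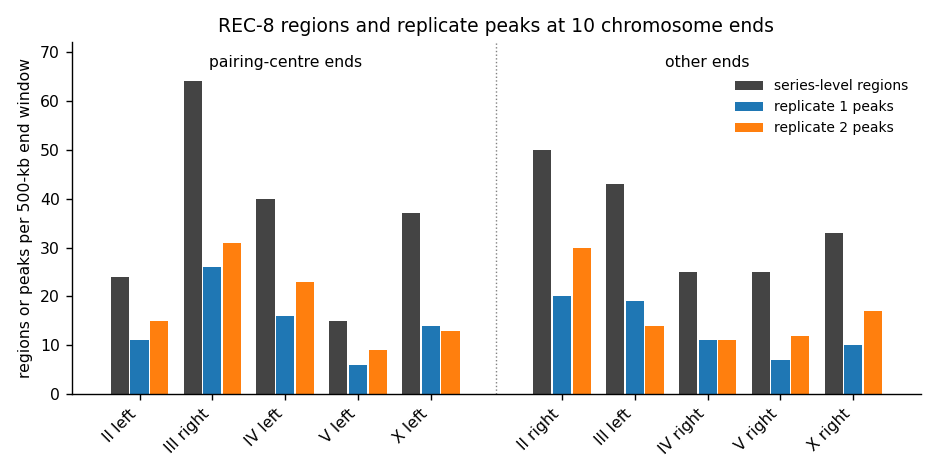
Bars give the number of series-level regions and of peaks of each replicate in the 500-kb window at each end, with the 5 pairing-centre ends on the left and the 5 other ends on the right. Pairing-centre ends range from 15 to 64 regions and the other ends from 25 to 50, so the classes overlap.

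Score and width did not pass the test between the classes either. The median score per end was 7.99 ± 1.53 (SD, n = 5) at pairing-centre ends and 8.28 ± 1.06 (SD, n = 5) at the others (difference -0.295, exact permutation p = 0.714). The median width was 306 ± 25.3 bp (SD, n = 5) and 310 ± 27.8 bp (SD, n = 5), a difference of -4.30 bp (exact permutation p = 0.794). In the list of replicate 1 alone the difference was -71.8 bp (456 against 528 bp, exact permutation p = 0.0714), and in that of replicate 2 alone -24.0 bp (403 against 427 bp, exact permutation p = 0.579). The highest score was 54.95 at the left of V and from 137.18 to 193.65 at the remaining pairing-centre ends, and from 87.36 to 168.48 at the 5 other ends. With 5 ends in each class, only differences that are large beside this spread could pass such a test. Paired by chromosome, exact sign flips gave p = 0.375 for the median score and p = 0.5625 for the median width.

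The share of regions found in both replicates was the measure in which the classes lay farthest apart, and it did not pass the test. It was 37.9 ± 5.55% (SD, n = 5) at pairing-centre ends and 28.9 ± 8.99% (SD, n = 5) at the others, a difference of 9.02 percentage points (exact permutation test over the 10 ends, p = 0.0952, adjusted by Benjamini-Hochberg over the 4 measures 0.381). The pairing-centre end had the higher share on each of the 5 chromosomes, with 41.7% against 40.0% on II, 29.7% against 16.3% on III, 35.0% against 32% on IV, 40.0% against 32% on V and 43.2% against 24.2% on X. Paired by chromosome, exact sign flips gave p = 0.0625, the smallest that 5 chromosomes allow, and 0.25 after adjustment. The share overlapped by replicate 1 at all differed by 2.57 points, and that overlapped by replicate 2 by 7.82 points. At the left of X the 6 regions under a single wide peak raise the share, which is 32.3% (10 of 31) without them. With regions under the same replicate peak counted once, an alternative added after seeing the data, the classes differed by 7.03 points (exact permutation p = 0.190).

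By chromosome, both end windows together carried 71.2 ± 24.0 regions per Mb (SD, n = 5 chromosomes) and the rest of the same chromosomes 71.4 ± 16.6 (SD, n = 5), a difference of -0.209 per Mb (two-sided exact permutation by sign flips over chromosomes, p = 1, where no p under 0.0625 can be reached). The ends were the denser part on III (107 against 97.9 per Mb), X (70.0 against 61.8) and II (74.0 against 71.9), and the sparser on IV (65.0 against 71.8) and V (40.0 against 53.7). Of the 5 chromosomes, III was the densest and V the sparsest at the ends and in the rest alike. The median score was 8.14 ± 1.04 at the ends and 7.74 ± 0.198 elsewhere (SD, n = 5 each, exact p = 0.5), and the median width 307 ± 20.8 and 293 ± 6.86 bp (SD, n = 5 each, exact p = 0.25). The share found in both replicates was 33.6 ± 5.86% at the ends and 28.8 ± 0.9996% elsewhere (SD, n = 5 each, exact p = 0.188), higher at the ends on every chromosome but III (24.3% against 29.3%). Counting overlap with replicate 2, with or without replicate 1, the difference of 4.82 points was 0.434 points (48.1% against 47.6%, exact p = 1). Counting overlap with replicate 1, with or without replicate 2, it was 3.43 points (40.1% against 36.7%, exact p = 0.25). The difference in score of 0.403 was 0.026 without chromosome II (exact p = 1). Adjusted p-values over these 4 measures ran from 0.5 to 1.

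Set among the 500-kb windows of its chromosome, no end was the densest or the sparsest. Windows were laid from the left end and the last was set against the right end. A stretch shorter than 500 kb beside that last window therefore lay in none. The right end of II ranked 5 of 30 by number of regions, tied with 1 other window, and the right end of III 6 of 27. The left ends of X (9 of 35) and IV (11 of 34) and the right end of X (13 of 35) also lay above the median of the inner windows. The right end of V equalled that median of 25. The left ends of III (18 of 27), II (24 of 30) and V (34 of 41) and the right end of IV (28 of 34) lay below it. Replicate 1 placed the right end of III first of its 27 windows, tied with 1 other, and replicate 2 placed it 9. The left end of X ranked 7 of 35 by peaks of replicate 1 and 25 of 35 by those of replicate 2, so its place depended on the replicate.

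**Figure D5:**
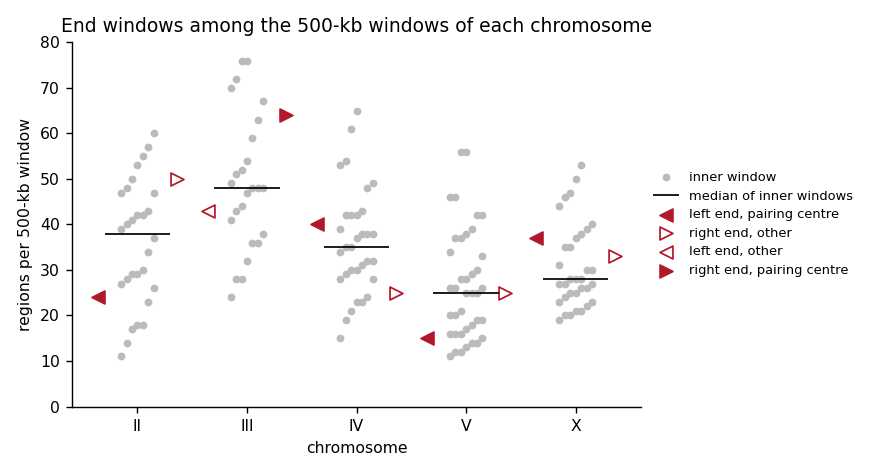
Number of series-level regions in each 500-kb window (vertical) by chromosome, with grey points for inner windows, a line at their median and triangles for the left and right ends, filled for pairing-centre ends. The end windows fall inside the range of the inner windows on all 5 chromosomes.

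The last regions inside the 500-kb limit, 1 per end, scored 4.68 to 21.54 and lay 444 to 499.97 kb from the end, and 2 of the 10 were found in both replicates. They were II 484384 to 484600, II 14794778 to 14795273, III 491165 to 491359, III 13283647 to 13283812, IV 443611 to 444030, IV 16995476 to 16995640, V 494351 to 494554, V 20424229 to 20424393, X 489737 to 490049 and X 17221834 to 17222166. The first regions beyond it scored 3.06 to 134.44 and lay 501 to 580 kb from the end, and 3 of the 10 were found in both replicates. The strongest of these was X 516410 to 517005, with a score of 134.44, close to the 137.18 of the highest region inside the left window of X.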

How the data were processed

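The authors deposited REC-8 ChIP-seq peaks in 3 lists, for each of 2 REC-8 libraries and for the series. Input libraries had no list of their own here. The submitters' processing notes name BWA and the build ce10, and coordinates, counted from 1, belong to WS220 per the file headers. The source column of the deposited files names MACS for the replicates and MACS v2 for the series-level list. Not given in the sources used here are caller settings, the use of input and pooling. The deposited value is a score of unstated scale, read within its own list, also as a percentile of that list. Replicates were compared by rank correlation, and their raw scores, where printed side by side, may not share a scale. Read depth is unknown.

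Regions were placed by midpoint, with the chromosome lengths of WS220. A region was found in a replicate when a peak overlapped it by at least 1 bp. Classes of ends were compared by exact permutation over 10 ends, ends with the rest by exact sign flips over 5 chromosomes, and p-values were adjusted by Benjamini-Hochberg over 4 measures. The permutation test between classes was checked on simulated region numbers. There regions were placed independently of each other, unlike the grouped regions of these data. Score, width, replicate share and the comparison of ends with the rest were not checked in this way. Alternatives were windows of 250 and 1000 kb, the upper 50% of scores, placement by overlap, 50% coverage, single replicates, chromosomes left out, and ends paired. The regions named are the highest and outermost of each end, the 5 highest, the 5 widest and those at the limit. The rule for members used position alone, but it and the lists were set with earlier results of these data known. A genome or annotation of build WS220 was not used here, so genes and sequences are not given. Python 3.11.15, numpy 2.4.6, pandas 2.3.3, scipy 1.17.1 and matplotlib 3.10.9 were used.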

Additional observations from a re-analysis of the deposited data

How the results depend on the processing

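Of the 102 alternatives, 53 were exact sign flips over 5 chromosomes or fewer, which cannot pass a threshold of 0.05, and the same holds for the 4 tests of ends against the rest as reported. Of the 49 that could, 0 had an unadjusted p under 0.05. Placement by overlap moved no region, and it and the pairing of ends left 12 values as they were. Of the other 90, 72 kept the direction, 17 turned round and 1 came to 0 (region number without chromosome X). The share found in both replicates stayed higher at pairing-centre ends (6.52 to 13.97 points) and at ends against the rest (1.38 to 7.29 points). With 1 replicate left out, overlap with the other was higher too. The lowest differences were 2.57 points between classes (without replicate 2) and 0.434 points against the rest (without replicate 1). The median score of ends stayed above that of the rest, by 0.026 without chromosome II. Region numbers of pairing-centre against other ends turned round with windows of 1000 kb (-8.20) and the upper 50% of scores (-0.8), and ran from -4.25 to 7.5 with a chromosome left out, negative without III and without IV. Their median score turned with windows of 1000 kb (0.593), the upper 50% (1.43) and shared peaks counted once (0.217), and their median width with windows of 250 kb (27.5 bp) and the upper 50% (3.10 bp). Density of ends against the rest turned with windows of 250 kb (3.04 per Mb), the upper 50% (0.705) and without replicate 2 (2.14, against -1.07 without replicate 1), and ran from -2.55 to 3.16 with a chromosome left out, positive without IV and without V. Width of ends against the rest turned with the upper 50% (-0.1 bp), without replicate 1 (-14.4 bp) and without replicate 2 (-14.9 bp), and ran from 8.75 to 23.0 bp with a chromosome left out. The causes were not tested. No paired analysis was possible because of the replicate numbers that ChIP and input libraries share: only the REC-8 libraries had peak lists. Pairing the ends of a chromosome is a different matter.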

Other observations

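Chromosome I was not among the chromosomes compared. Its left end also carried a peak from base 1 in each replicate, to base 533 in replicate 1 (score 725.9, percentile 86.0 of its list) and to base 516 in replicate 2 (score 1288.45, percentile 95.9). There the series-level list held a region from base 1 to 432 with a score of 14.31, at percentile 71.4 of the list, above the percentiles of the terminal regions of V and X.

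Of the 140 peaks of replicate 1 and the 175 of replicate 2 near the 10 ends, 5 in each had no series-level region under them, and 3 of the 5 in each were the terminal peaks on the left of II, III and IV. The remaining 4 scored 55.52 to 84.78 in their lists, and lay on the right of III and the left of IV. Elsewhere on the 5 chromosomes, 38 of 2018 peaks of replicate 1 (1.88%) and 75 of 2816 of replicate 2 (2.66%) had none.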
